A study of Rattus norvegicus with 12 samples.

Results

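The 9 dressed wound libraries of diabetic rats were compared with the 3 control libraries over day 3, 7, and 14, and the genes sought were those that every dressing placed above, or every dressing placed below, the control on each day. RNA was taken from skin at a full-thickness dorsal wound made by punch in male SD rats of 8 to 12 weeks with streptozotocin-induced diabetes, and every library, the controls included, came from such diabetic and wounded animals. The control wounds received normal saline. The d-SMG wounds received the dried mucus gel of the snail *A. fulica*, the s-GAG wounds the sulfated glycosaminoglycan of the same mucus, and the Alg wounds a commercial alginate dressing that, unlike the gel, was changed as it took up exudate. All 3 are called dressings here, although s-GAG was applied in solution. The 12 libraries are all those of the series, 1 for each treatment and day, so that the 3 dressed libraries of a day share 1 control library and a day is the only replicate of a treatment. Whether a library came from 1 rat or from pooled rats is not given in the sources used here. Streptozotocin destroys the insulin-producing cells of the pancreas, and such rats may lack parts of the human diabetic foot ulcer, such as peripheral neuropathy, lasting high blood glucose, and mechanical stress.

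Of the 25620 genes in the count table, 15672 had enough reads to be tested, and 487 of them lay on 1 side of the control in all 9 dressed libraries, 230 above and 257 below. The 8 genes that lay at least 2-fold above in all 9 were 5 hair keratin genes (*Krt31*, *Krt25*, *Krt85*, *Krt86*, and *Kb23*) together with *Pinlyp*, *Edn2*, and *Vom2r44*, and 0 genes lay at least 2-fold below in all 9. In the d-SMG library of day 3 these keratins, except *Krt25*, rested on 2 to 4 reads, against 0 or 1 in the control. The number of genes at least 2-fold above fell to 2 when the prior count added before taking logs was 10. Below the control in every dressed library were 4 of 16 macrophage genes tested (*Csf1r*, *Aif1*, *Trem2*, and *Fcgr3a*), against 1.64% of all genes tested. The cytokine gene *Il33* and the antiviral gene *Oas3* also lay below in all 9. The macrophage genes and *Il33* differed least in the d-SMG library of day 7. They no longer lay below in every library when counts were scaled by library size alone. The call depended on the tool: edgeR's quasi-likelihood test of dressed against control called 0 genes after adjustment, and DESeq2 called 128, the 8 genes included.

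A healing skin wound passes through inflammation, in which neutrophils and macrophages clear debris, then through the growth of new tissue and epidermis, and last through remodeling of the matrix. The hair follicle is a part of the skin that grows in cycles. Its growing shaft and inner root sheath are built from keratins and keratin-associated proteins that the epidermis between follicles scarcely uses. Type I interferons induce a further set of genes, which carry out antiviral defense and are switched on by STAT and IRF transcription factors at a short DNA element.

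The libraries held from 13748887 to 38302461 reads on genes, with a median of 17022524.5. The keratinocyte, fibroblast, and macrophage marker lists had reads in all 12 libraries, as skin would, but so had skeletal muscle markers, which summed to between 79900 and 104000 CPM (read counts scaled to library size by the trimmed mean of M values, TMM) in the control libraries and to between 7610 and 312000 CPM in the dressed ones. A pair of libraries stood apart from the rest. The d-SMG library of day 3 and the s-GAG library of day 14 correlated least with the other libraries of their day over all genes (median Pearson's r of 0.886 and 0.838, against 0.913 to 0.94 for the other 10), and their TMM scaling factors were the lowest (0.741 and 0.743). These 2 libraries held 312200 and 162600 CPM of skeletal muscle genes, respectively, and the Alg library of day 7 held 186600. In bulk tissue, fewer cells of a type and less RNA per cell cannot be told apart.

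With day as the block and dressed against control as the term, edgeR's quasi-likelihood test called 0 genes higher (0%) and 0 genes lower (0%) in the dressed libraries at a false discovery rate (FDR) under 0.05. The smallest adjusted p-value was 0.928. At an unadjusted p-value under 0.05, 452 genes were higher in the dressed libraries (2.88% of those tested) and 294 were lower (1.88%), 746 altogether or 4.76%. The spread between libraries after day and arm were fitted was large, with a common biological coefficient of variation of 0.481 over 8 residual degrees of freedom. An effect that differed between the dressings or between the days counts as spread in this model. A test of whether the effect of the dressings differed between the days called 0 genes (0%, smallest adjusted p-value 0.797), and a test of differences among the 3 dressings called 0 genes (0%, smallest adjusted p-value 0.9995). With DESeq2 in place of edgeR, 128 of the 14721 genes with an adjusted p-value were called for dressed against control (0.87%), 117 of them higher (0.795%) and 11 lower (0.0747%). Of the 64 keratin and keratin-associated genes with an adjusted p-value, DESeq2 called 36, all higher (56.2%). It called 13 genes between days (0.083%) and 2 among dressings (0.0128%). The 6 genes in each direction with the smallest edgeR p-values all passed with DESeq2. They were picked by p-value for the same contrast on the same counts, so this is not independent support.

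The direction rule was read against how often the 3 dressings lay on the same side on a single day. On day 3, 22.5% of the tested genes lay above the shared control in all 3 dressed libraries and 24.3% lay below it. The shares were 25.5% above and 25.5% below on day 7, and 28.5% above and 29.8% below on day 14. Because the 3 dressed libraries of a day share a control, such agreement on 1 day is common. Over all 9 libraries, 1.47% of the genes lay above and 1.64% below, and 0.051% lay at least 2-fold above and 0% at least 2-fold below. The differences of many of the 487 genes were small in at least 1 library. The median of the smallest of the 9 absolute differences was 0.118 on the log2 CPM scale for the genes above and 0.0845 for the genes below, against 0.0655 for all genes tested. Just outside the rule, 1076 genes lay above in 8 of the 9 libraries and 808 lay above in 1. The genes on 1 side in all 9 were also sensitive to scaling, with 222 genes found when the library size replaced TMM, 148 of which were among the 487 with the same direction. Under all 5 scalings tried, 89 of the 230 genes above and 46 of the 257 genes below kept their side in every dressed library.

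If the side is allowed to change from day to day, 2267 genes had all 3 dressings on 1 side of the control on each of the 3 days. Only 10.1% of these lay above on every day and 11.3% below on every day. The most frequent patterns were above on day 3 and below on day 7 and 14 (516 genes, 22.8%) and the mirror image, below on day 3 and above on day 7 and 14 (493 genes, 21.7%). The other 4 patterns held between 136 and 282 genes each.

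**Figure D1:**
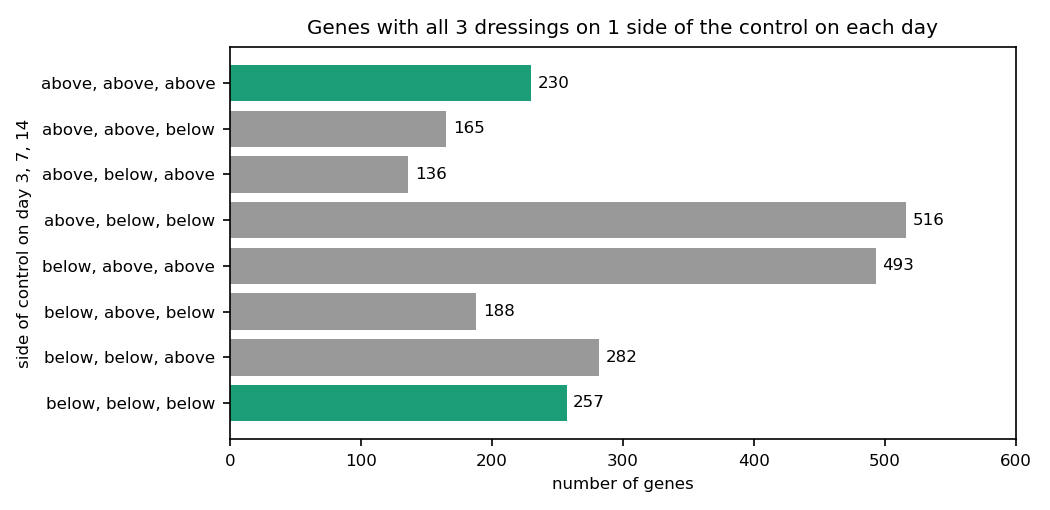
Number of genes (horizontal axis) with all 3 dressings on 1 side of the control library on each of the 3 days, by the side on day 3, 7, and 14 (vertical axis), with the 2 patterns that kept their side colored. The 230 genes above throughout and the 257 below throughout were fewer than the 516 and 493 genes whose side on day 3 was opposite to that on both later days.

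The hair keratins had the largest differences among the genes above the control. *Krt31*, a type I keratin of the hair shaft on chromosome 10, was at 0.042, 0.341, and 3.03 CPM in the control libraries of day 3, 7, and 14. In the dressed libraries it was at 0.322 CPM with d-SMG on day 3, 20.6 on day 7, and 12.2 on day 14, at 132, 55.3, and 202 CPM with s-GAG, and at 26.3, 3.8, and 714 CPM with Alg. Each dressed library was thus above the control of its day, but the d-SMG library of day 3 and the control library of day 14 overlapped the other arm. On day 3 the d-SMG value stood on 4 reads and the control value on 1 read, so that a difference in that library was not detectable at this depth. *Krt25*, a type I keratin of the inner root sheath on the same chromosome, had more reads. It was at 0.462, 2.86, and 62 CPM in the control libraries (11, 42, and 1269 reads), and its dressed libraries lay between 1.45 CPM in d-SMG on day 3 (18 reads) and 1940 CPM in s-GAG on day 14 (28458 reads), with a median of 404. The mean of its 9 log2 CPM differences was 5.6.

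*Krt85*, a type II keratin of the hair shaft on chromosome 7, was at 0.042, 0.545, and 4.94 CPM in the control libraries, and between 0.241 CPM (d-SMG, day 3) and 536 CPM (Alg, day 14) in the dressed ones, with a median of 93.1. *Krt86*, another type II hair keratin beside it on chromosome 7, was at 0, 0.341, and 1.66 CPM in the control libraries and between 0.161 and 542 CPM in the dressed ones. *Kb23*, a further type II keratin on that chromosome, was at 0, 0.0682, and 1.86 CPM in the controls and between 0.161 and 643 CPM in the dressed libraries. The lowest dressed value of each of these 3 genes was in the d-SMG library of day 3, where it rested on 2 or 3 reads. *Krt35*, a hair keratin of the shaft, and *Krt73*, of the inner root sheath, also lay above in all 9 libraries, with mean differences of 6.66 and 4.97 and smallest differences of 0.878 and 0.86, again in the d-SMG library of day 3. Keratin genes share sequence, and how the counting treated reads that matched several of them is not given in the sources used here, so the split between near copies is uncertain.

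On the length-scaled FPKM values, by which genes can be compared, *Krt25* had the highest level of these 6 genes in the s-GAG library of day 14 (472.05 FPKM), followed by *Krt35* (419.9), *Krt85* (115.92), *Krt31* (92.81), *Kb23* (46.31), and *Krt86* (14.31). In the Alg library of day 14 the order was different, with *Krt25* at 522.3, *Krt31* at 475.44, *Kb23* at 351.05, *Krt85* at 302.61, *Krt86* at 282.25, and *Krt35* at 197.15 FPKM. Without replicates of a library the spread of these orders is unknown.

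Of the 32 genes of the hair follicle list that were tested, 8 lay above the control in all 9 dressed libraries, against 1.47% of all genes tested. Below in all 9 lay 0, against 1.64%. Of the other 24, 23 lay above in 8 of the 9, against 6.87% of all genes. The exception, *Lef1*, a transcription factor of the hair matrix, lay above in 7. All 32 had an unadjusted p-value under 0.05 with edgeR and were higher, against 2.88% of all genes tested. The list was written with earlier results of these data known, and its genes are not independent of each other. After adjustment 0 passed with edgeR and 25 with DESeq2 (78.1%, background 0.795%). The median difference of the list over the 9 libraries was 4.21 on the log2 CPM scale, and that of all genes tested was −0.039. By day the median was 3.92 on day 3, 4.51 on day 7, and 4.12 on day 14. By library, the median was −0.0137 in the d-SMG library of day 3, and it lay between 1.96 (d-SMG, day 14) and 7.76 (s-GAG, day 3) in the other 8. Thus, on day 3 the list lay above the control with s-GAG and Alg and near it with d-SMG, where the summed level was below that of the control.

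The summed level of the list was 41.7 CPM in the control library of day 3, 95.5 on day 7, and 2690 on day 14. In the dressed libraries it ranged from 31.9 CPM (d-SMG, day 3) to 46200 CPM (Alg, day 14), with a median of 4590. The control library of day 14 was therefore above the d-SMG library of day 3 and the Alg library of day 7 (498.8 CPM). Of all 68 keratin and keratin-associated genes tested, 10 lay above in all 9 libraries, against 230 of all 15672 genes (1.47%). In at least 8 libraries 46 lay above, against 1306 of all 15672. Below in all 9 lay 0, against 1.64% of all genes. Their median difference was 3.1. The d-SMG library of day 3 was low in other epidermal genes as well, with a median difference of −4.6 over 17 basal and wound keratinocyte genes, −3.6 over 24 genes of the differentiated epidermis, and −5.4 over 14 sebaceous gland genes. The part of skin composition in the hair keratin values was not tested.

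**Figure D2:**
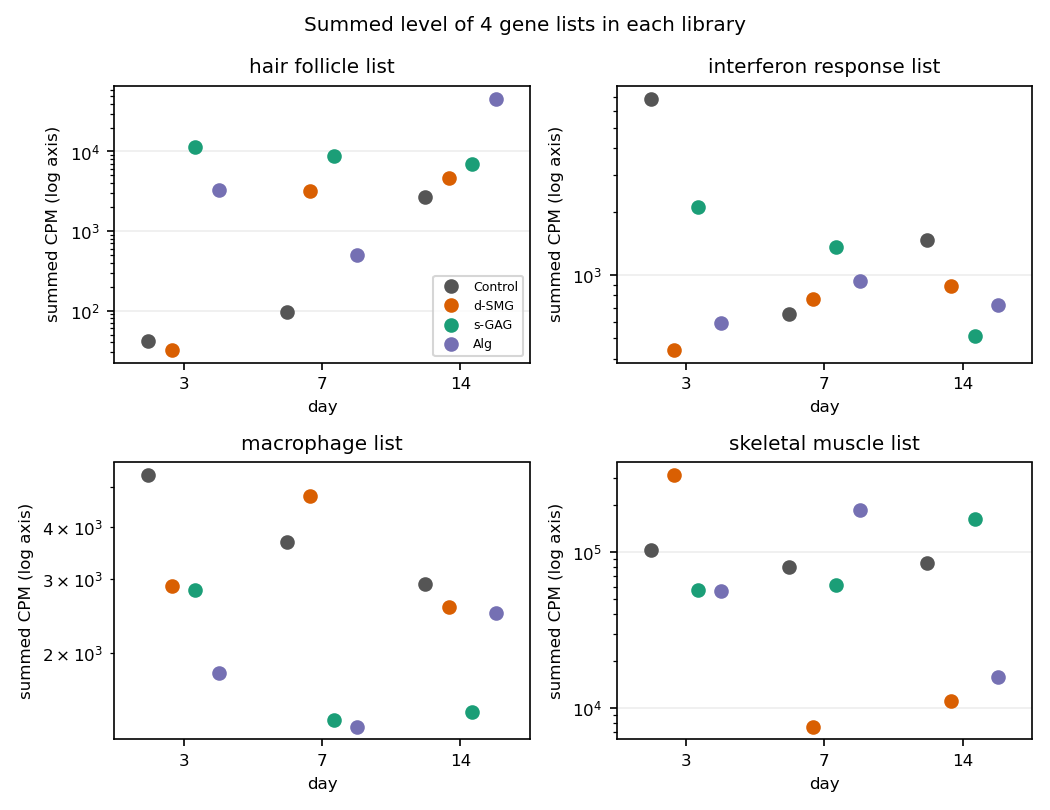
Summed CPM (log axis) of the hair follicle, interferon response, macrophage, and skeletal muscle lists in each of the 12 libraries, by day, with the control in gray, d-SMG in orange, s-GAG in green, and Alg in violet; each point is 1 library. The hair follicle sum of the control was 41.7 CPM on day 3 and 2690 CPM on day 14, and the muscle sum ranged from 7610 to 312000 CPM over the dressed libraries.

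The 250 bases before the start of 4 of these keratin genes are shown because these genes lay above the control together, as RefSeq gives them for the build GRCr8, 5′ to 3′ along the gene's own strand. Capitals mark TATAAA, the letters to which the basal transcription machinery binds near a start. They also mark CTTTGA, a core of the sites bound by LEF and TCF factors, which act in the hair matrix. Each was searched on both strands.
Krt31, chr10:85483301-85483550, minus strand: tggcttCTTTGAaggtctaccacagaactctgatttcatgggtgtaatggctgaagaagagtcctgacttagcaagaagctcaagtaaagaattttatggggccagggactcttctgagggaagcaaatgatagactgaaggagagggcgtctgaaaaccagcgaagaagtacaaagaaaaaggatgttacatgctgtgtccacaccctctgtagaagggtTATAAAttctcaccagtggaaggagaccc
Krt25, chr10:84771198-84771447, minus strand: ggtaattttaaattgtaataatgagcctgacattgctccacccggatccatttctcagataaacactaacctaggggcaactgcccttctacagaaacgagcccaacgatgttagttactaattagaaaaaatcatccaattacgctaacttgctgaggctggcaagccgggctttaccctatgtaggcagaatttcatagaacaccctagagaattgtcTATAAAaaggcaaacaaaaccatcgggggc
Krt35, chr10:85529969-85530218, minus strand: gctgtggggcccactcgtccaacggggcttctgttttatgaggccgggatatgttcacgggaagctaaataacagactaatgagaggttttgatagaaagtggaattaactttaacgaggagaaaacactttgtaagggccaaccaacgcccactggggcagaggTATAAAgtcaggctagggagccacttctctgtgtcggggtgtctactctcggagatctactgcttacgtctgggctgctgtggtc
Krt85, chr7:134515787-134516036, minus strand: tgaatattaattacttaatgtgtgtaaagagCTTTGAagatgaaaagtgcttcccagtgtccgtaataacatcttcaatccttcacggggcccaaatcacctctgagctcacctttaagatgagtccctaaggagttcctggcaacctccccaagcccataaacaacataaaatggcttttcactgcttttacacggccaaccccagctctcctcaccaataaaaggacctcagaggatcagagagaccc
In *Krt31* and *Krt25* the letters TATAAA began 29 and 30 bases before the start, respectively, and in *Krt35* 85 bases before it, whereas TATAAA was not in this window of *Krt85*. TATAAA was found in 65.2% of the 23 promoters of the hair follicle list that were in the table, against 7.61% of the 11890 promoters of tested genes and 13.1% of all 27457 promoters. CTTTGA was found in 39.1% of the 23, 10.8% of the promoters of tested genes, and 13.8% of all promoters. Among all genes above the control in the 9 libraries, of which 171 of 230 had a promoter in the table, TATAAA was in 12.3% and CTTTGA in 12.3%. Such matches describe the sequence and do not show that a factor bound there.

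Apart from the keratins, several genes lay above the control in all 9 libraries without any overlap between the arms. The share of all genes tested whose arms did not overlap was not counted, so the lack of overlap, here and below, only describes the named genes. *Pinlyp*, which encodes an inhibitor of phospholipase A2 with a LY6 domain, was at 0.294, 0.613, and 1.37 CPM in the control libraries (7, 9, and 28 reads) and at 1.77, 4.47, and 9.19 CPM with d-SMG, 8.21, 10.1, and 28.3 CPM with s-GAG, and 4.99, 2.65, and 11.9 CPM with Alg on day 3, 7, and 14. The lowest dressed library was above the highest control, and within each dressing the library of day 14 was the highest. The fitted log2 difference was 3.60 ± 0.67 (SE, n = 9 dressed and 3 control libraries, adjusted p-value 0.928 by edgeR and 3.73e-06 by DESeq2). Its smallest difference, in the Alg library of day 7, was 1.94 on the log2 CPM scale. *Edn2*, the gene of the vasoconstrictor peptide endothelin 2, was at 0.126, 0.136, and 0.0978 CPM in the control libraries, which is 2 or 3 reads each. It was at 1.53, 0.599, and 1.95 CPM with d-SMG, 1.21, 1.75, and 3.55 CPM with s-GAG, and 0.783, 0.611, and 1.8 CPM with Alg. The dressed libraries held from 9 to 68 reads, and its fitted log2 difference was 3.51 ± 0.62.

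*Vom2r44*, a vomeronasal receptor gene on chromosome 2, had 1 or 2 reads in each control library and from 6 to 159 reads in the dressed ones, or 0.373 to 4.09 CPM. It had the smallest unadjusted p-value of all genes (8.62e-05). *Pthlh*, which encodes the parathyroid hormone-related peptide that keratinocytes secrete, was at 0.462, 0.545, and 0.88 CPM in the controls, and at a lowest, median, and highest of 0.965, 4.21, and 20.3 CPM in the dressed libraries. *Car2*, a cytosolic carbonic anhydrase, was at 1.3, 1.77, and 1.32 CPM in the controls and at 2.33, 9.21, and 18.3 CPM as lowest, median, and highest of the dressed libraries. For both genes the lowest dressed library was d-SMG on day 3 and the highest s-GAG on day 14, and the arms did not overlap.

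*Arhgap19*, a gene that acts in dividing cells, had the narrowest range of differences among the genes named here. It was at 9.74, 7.02, and 11.4 CPM in the controls and between 12.8 and 25.2 CPM in the dressed libraries, with differences between 0.715 and 1.25 on the log2 scale. *Mns1*, a gene of the ciliary axoneme and of sperm, was at 21.9, 20.8, and 13.1 CPM in the controls and between 27.9 and 62.5 CPM in the dressed libraries. *Cxcl14*, a chemokine gene of the epidermis, was the only member of the chemokine and cytokine list above in all 9. Its control values of 41.9, 11, and 24.7 CPM overlapped the dressed range of 26.5 to 202 CPM. *Ccl11*, a chemokine gene not on that list, also lay above in all 9. With DESeq2 the adjusted p-value was 0.0419 for *Ccl11* and 0.114 for *Cxcl14*. *Capn8*, a calpain protease gene, had a mean difference of 2.42. *Mag*, a myelin gene, was under 1.3 CPM throughout, with differences as small as 0.228. *Retn*, the adipocyte hormone gene resistin, had a mean difference of 2.13 but only 0.0329 in the d-SMG library of day 3, and under library-size scaling it no longer lay above in all 9.

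**Figure D3:**
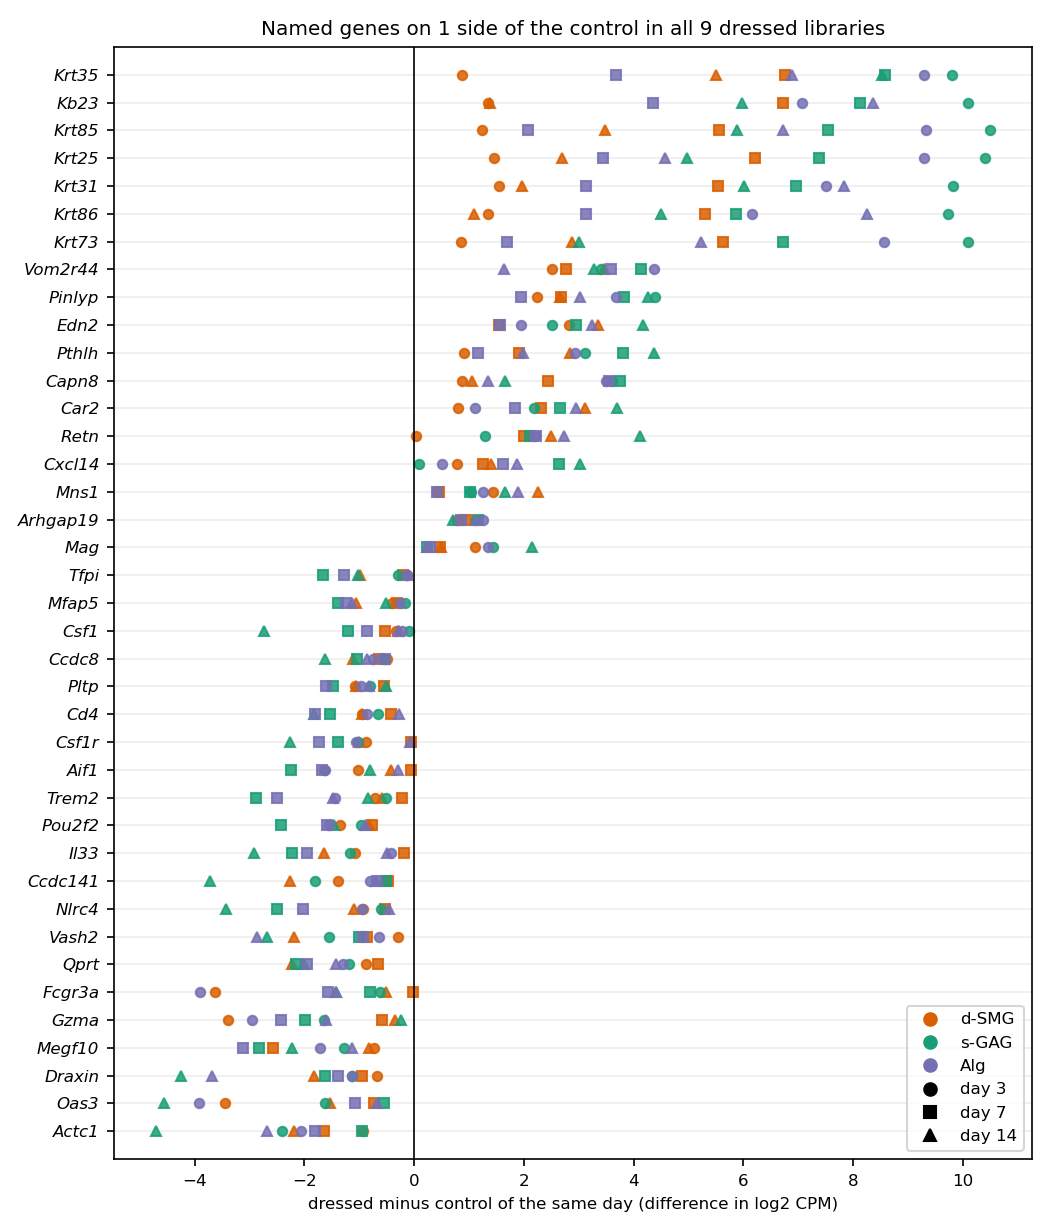
Difference in log2 CPM between each dressed library and the control library of its day (horizontal axis) for the named genes that lay on 1 side in all 9 dressed libraries (vertical axis), with color for the dressing and marker shape for the day. The 7 keratin genes at the top spread from 0.86 to 10.5, whereas *Arhgap19* lay within 0.715 to 1.25 and *Oas3* within −4.55 to −0.544.

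Of 16 macrophage genes tested, 4 lay below the control in all 9 dressed libraries (1.64% of all genes tested did) and 0 above. At an unadjusted p-value under 0.05 with edgeR, 6 were lower (background 1.88%). After adjustment 0 passed with edgeR or with DESeq2. The median difference of the list was −1.07, and its library medians were below 0 in 8 of the 9 libraries, the other being 0.00183 in the d-SMG library of day 7. *Csf1r*, the receptor for the macrophage growth factor CSF1, was at 114, 121, and 129 CPM in the control libraries. In the dressed libraries it was at 61.9, 116, and 63.8 CPM with d-SMG, 55.8, 46, and 26.9 CPM with s-GAG, and 54.9, 36.1, and 122 CPM with Alg on day 3, 7, and 14. The d-SMG library of day 7 and the Alg library of day 14 lay within the range of the controls. The gene of its ligand, *Csf1*, was at 95.6, 111, and 114 CPM in the controls and between 17.1 (s-GAG, day 14) and 93.6 CPM in the dressed libraries, so that these arms did not overlap.

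*Aif1*, a marker of activated macrophages, was at 319, 239, and 186 CPM in the controls and at 50.3, 107, and 229 CPM as lowest, median, and highest of the dressed libraries. *Trem2*, a receptor of lipid-handling macrophages, was at 39.8, 55.2, and 18.4 CPM in the controls and at 6.58, 12.2, and 47.3 CPM as lowest, median, and highest of the dressed libraries. *Fcgr3a*, a receptor for IgG, was at 21.9, 6.07, and 13.1 CPM in the controls and between 1.37 and 14.2 CPM in the dressed libraries. In *Csf1r*, *Aif1*, *Trem2*, and *Fcgr3a* the smallest difference was that of the d-SMG library of day 7, between −0.222 and −0.0182, and all 4, like *Csf1*, no longer lay below in every library once TMM gave way to the library size. The median of the macrophage list kept its sign with that scaling. *Adgre1*, *C1qa*, *C1qc*, *Cd68*, *Itgam*, and *Mpeg1* lay below in 8 of the 9 libraries. The lists of M1-associated and M2-associated macrophage genes had medians of −0.394 and −0.336, with 0 of 13 and 0 of 12 genes on 1 side in all 9 libraries.

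*Cd4*, a co-receptor of T cells that rat macrophages also carry, was at 278, 364, and 304 CPM in the controls and between 85.8 and 272 CPM in the dressed libraries. *Gzma*, a protease of cytotoxic lymphocytes, had 44, 12, and 12 reads in the controls (1.85, 0.818, and 0.587 CPM) and at most 11 reads in a dressed library (0.516 CPM at most). For both genes the arms did not overlap. The T cell receptor genes *Cd3e*, *Cd3d*, and *Cd3g* lay above the control in 4, 5, and 4 of the 9 libraries, and their mean differences were −0.107, 0.361, and 0.0217. *Cd4* and *Gzma* were the 2 genes of 18 on the T and NK cell list that lay below in all 9, against 1.64% of all genes tested.

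*Il33*, an alarmin cytokine held in the nuclei of fibroblasts and epithelial cells, was at 109, 137, and 92.1 CPM in the controls. It was at 51.3, 121, and 29.2 CPM with d-SMG, 48.4, 29.4, and 12.1 CPM with s-GAG, and 81.7, 35.4, and 65.1 CPM with Alg. All libraries but d-SMG on day 7 were below the lowest control, and *Il33* no longer lay below in all 9 libraries under library-size scaling. *Pou2f2*, a transcription factor of B cells and macrophages, was at 15.2, 16.9, and 13.2 CPM in the controls and between 3.06 and 9.86 CPM in the dressed libraries, with a fitted log2 difference of −1.27 ± 0.30. *Nlrc4*, an inflammasome sensor, was at 5.46, 9.68, and 7.63 CPM in the controls and between 0.615 and 6.68 CPM in the dressed libraries.

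*Actc1*, the alpha actin of heart and of immature skeletal muscle, had the largest smallest difference among the genes below the control. It was at 633, 150, and 162 CPM in the controls and at 332, 47.6, and 35.3 CPM with d-SMG, 119, 77.1, and 6.08 CPM with s-GAG, and 151, 42.9, and 24.9 CPM with Alg. Its differences ranged from −4.71 to −0.929 (fitted log2 difference −2.05 ± 0.47, adjusted p-value 0.928 by edgeR and 0.0128 by DESeq2). *Megf10*, a receptor of muscle satellite cells, was at 5.54, 11.4, and 2.3 CPM in the controls and between 0.41 and 3.3 CPM in the dressed libraries. The mature skeletal muscle list had 0 of 30 genes on the same side in all 9 libraries, a median difference of −0.671, and library medians from −3.28 (d-SMG, day 7) to 1.89 (d-SMG, day 3). The 16 genes of muscle regeneration had a median of −1.1 and 0 genes on 1 side in all 9. The part of muscle content in *Actc1* and *Megf10* was not tested.

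Arms without overlap were also seen for *Pltp* (a phospholipid transfer protein), *Ccdc8* (a partner of cullin 7), *Qprt* (an enzyme of NAD synthesis), and *Draxin* (an axon guidance protein). *Pltp* was at 114, 104, and 109 CPM in the controls and between 34 and 76.5 CPM in the dressed libraries. *Ccdc8* was at 64.9, 83.1, and 62.9 CPM in the controls and between 20.3 and 57.5 CPM in the dressed libraries. *Qprt* was at 3.65, 4.23, and 3.32 CPM in the controls and between 0.63 and 2.63 CPM in the dressed libraries, and *Draxin* was at 16.3, 26, and 18.7 CPM and between 0.888 and 13.4 CPM. *Vash2* (a tubulin carboxypeptidase) and *Ccdc141* had mean differences of −1.45 and −1.37. *Mfap5* (a microfibril protein) and *Tfpi* (an inhibitor of coagulation) had means of −0.721 and −0.645, and neither lay below in all 9 libraries when the library size replaced TMM. *Sorcs1*, chosen by its p-value, lay below in 8 of the 9 libraries, the exception being Alg on day 3 (0.277).

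The interferon response genes had their sharpest difference on day 3 and the opposite side on day 7. Of 30 genes tested, 16 lay below the control with all 3 dressings on day 3, above it on day 7, and below it on day 14. So did 188 of all genes tested (1.2%). Below on every day lay 1 (*Oas3*), against 1.64% of all genes tested. The median of the list was −3.02 on day 3, 0.331 on day 7, and −1.14 on day 14, and −1.26 over the days. Its library medians on day 3 were −4.11 with d-SMG, −1.57 with s-GAG, and −3.54 with Alg. The summed level of the list was 6894 CPM in the control library of day 3 and between 439.8 and 2093 CPM in the other 11 libraries. The control of day 3 was thus the highest of all, and its part in the difference of that day was not tested. At an unadjusted p-value under 0.05, 11 of the 30 genes were lower (background 1.88%), 0 were higher, and 0 passed after adjustment with edgeR or with DESeq2. *Oas3*, an enzyme that makes 2′-5′-linked oligoadenylates to activate RNase L, was at 14.1, 3.27, and 5.52 CPM in the controls. In the dressed libraries it was at 1.21, 1.93, and 1.83 CPM with d-SMG, 4.53, 2.21, and 0.137 CPM with s-GAG, and 0.832, 1.49, and 3.42 CPM with Alg, and the arms overlapped.

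The element through which interferon acts was looked for in the same promoters as GAAA, 2 bases of any kind, and GAAA again, on both strands, and it is shown in capitals for 3 genes below the control in all 9 libraries, 2 of which (*Parp12* and *Epsti1*, both interferon-induced) were singled out for holding it. CTTTGA is in capitals as well.
Oas3, chr12:41439482-41439731, plus strand: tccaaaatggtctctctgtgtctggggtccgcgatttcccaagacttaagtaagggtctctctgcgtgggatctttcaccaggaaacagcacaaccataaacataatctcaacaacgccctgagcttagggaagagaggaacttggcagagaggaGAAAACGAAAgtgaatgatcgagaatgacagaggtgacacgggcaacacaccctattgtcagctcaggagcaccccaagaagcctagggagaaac
Parp12, chr4:68850542-68850791, minus strand: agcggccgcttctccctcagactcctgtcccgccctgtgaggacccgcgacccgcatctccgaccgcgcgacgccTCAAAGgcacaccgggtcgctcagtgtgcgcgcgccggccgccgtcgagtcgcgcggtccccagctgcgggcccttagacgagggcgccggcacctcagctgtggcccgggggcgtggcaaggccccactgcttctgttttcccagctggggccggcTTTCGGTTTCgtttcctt
Epsti1, chr15:59693151-59693400, plus strand: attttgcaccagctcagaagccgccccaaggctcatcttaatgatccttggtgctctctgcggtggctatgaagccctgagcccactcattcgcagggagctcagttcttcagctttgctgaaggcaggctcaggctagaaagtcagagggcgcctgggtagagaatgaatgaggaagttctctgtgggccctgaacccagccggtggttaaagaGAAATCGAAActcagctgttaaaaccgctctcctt
The element began 95 bases before the start of *Oas3*, 18 before that of *Parp12*, and 35 before that of *Epsti1*. It was in 71.4% of the 21 interferon list promoters in the table, in 6.84% of the 190 promoters of genes below the control in all 9 libraries (13 promoters), and in 0.585% of the 171 promoters of genes above it (1 promoter). Over the promoters of all tested genes the share was 2.58%, and over all promoters 3.29%. The other genes below with the element were *Vcam1*, *Lgals9*, *Lgals3bp*, *Pltp*, *Gzma*, *Fcgr3a*, *Serpinb9*, *Apbb1ip*, *Vhl*, and a gene with a provisional symbol. The gene above with it was *Rpl38*. With library-size scaling, *Parp12*, *Epsti1*, *Vcam1*, *Fcgr3a*, *Serpinb9*, *Apbb1ip*, and *Vhl* no longer lay below in all 9 libraries. *Oas3*, *Lgals9*, *Lgals3bp*, *Pltp*, and *Gzma* still did.

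Ribosomal protein genes mostly lay on different sides on different days. Of 27 genes for cytosolic ribosomal proteins, 19 lay below the control with all 3 dressings on day 3 and above it on day 7 and 14, as did 493 of all genes tested (3.15%). The list medians were −0.467, 0.444, and 1.26 on day 3, 7, and 14. In the s-GAG library of day 14 their sum reached 74160 CPM, against 12870 CPM in the control of that day. For single genes the smallest p-values of the test between days were those of *Tnc* (0.000143 unadjusted), *Slc25a52* (0.000153), and *RT1-A3* (0.000927), all above the threshold after adjustment with edgeR. *Tnc*, a matrix protein of healing wounds, was at 23.8, 870, and 28.4 CPM in the controls and between 86.9 and 193 CPM in the dressed libraries. The dressed libraries thus held a narrow range while the control of day 7 was far above it and the other controls below it. *Slc25a52*, a mitochondrial carrier, had 105 and 75 reads in the controls of day 3 and 7 and 0 reads in the control of day 14, against 41 to 68 reads in the dressed libraries of day 14. *RT1-A3*, a class I histocompatibility gene whose near copies and alleles make its counts uncertain, was at 247, 43.6, and 3.03 CPM in the controls and between 55.1 and 182 CPM in the dressed libraries.

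**Figure D4:**
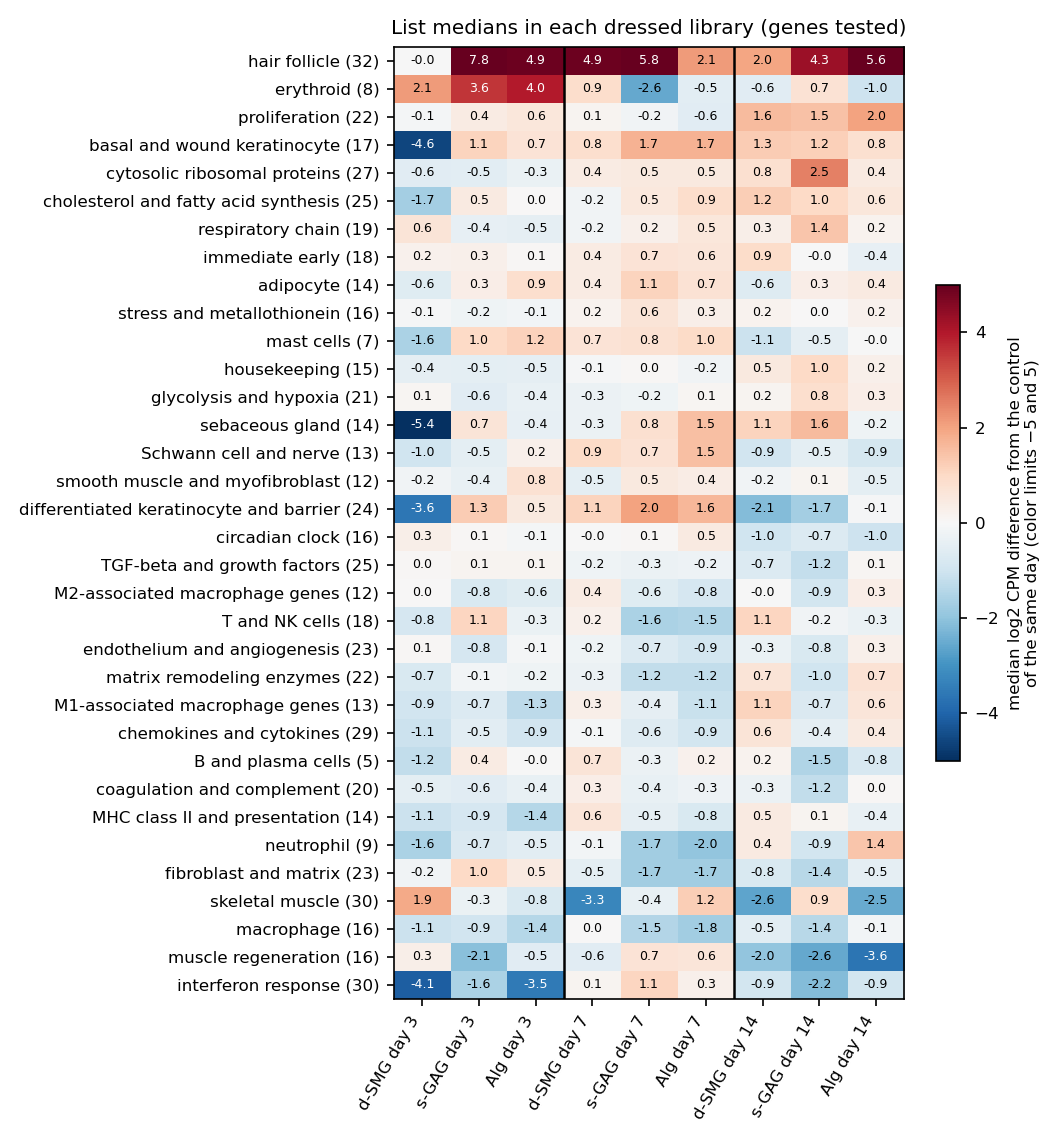
Median log2 CPM difference from the control of the same day for 34 gene lists (rows, with the number of genes tested) in each of the 9 dressed libraries (columns, grouped by day), with colors limited at −5 and 5. The hair follicle row lay between −0.0137 and 7.76, and the interferon row between −4.11 and 1.08, below 0 with all 3 dressings on day 3 and 14 and above 0 on day 7.

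The direction rule was also applied to 2 days at a time, and the genes so chosen were counted on the day left out. The libraries of that day had no part in this choice. They are, however, among those that defined the genes described above, so the counts are a description and not an independent check. Genes at least 2-fold to 1 side in all 6 dressed libraries of 2 days were counted on the remaining day, whose control library is a different one. Of 12 genes chosen as above on day 3 and 7, 9 lay above with all 3 dressings on day 14 (75%, exact Clopper-Pearson 95% interval 42.8% to 94.5%, which covers counting error only), against 28.5% of all genes. The 9 included 6 keratins. Of 22 genes chosen as above on day 3 and 14, 15 lay above on day 7 (68.2%, 45.1% to 86.1%, against 25.5%), 5 of them keratins. Of 143 genes chosen on day 7 and 14, 24 lay above on day 3 (16.8%, 11.1% to 23.9%, against 22.5%). In this last set, 29 were keratins, and 7 of those lay above on day 3 with all 3 dressings. For the genes chosen as below, each interval covered the share over all genes. Of 9 chosen on day 7 and 14, 0 lay below on day 3 with all 3 dressings (0% to 33.6%, against 24.3%). Of 3 chosen on day 3 and 7, 0 lay below on day 14 (0% to 70.8%, against 29.8%). Of 23 chosen on day 3 and 14, 2 lay below on day 7 (8.7%, 1.07% to 28%, against 25.5%) and 15 lay above (65.2%, against 25.5%). Genes are not independent of each other, and the hair keratins recur in the sets.

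**Figure D5:**
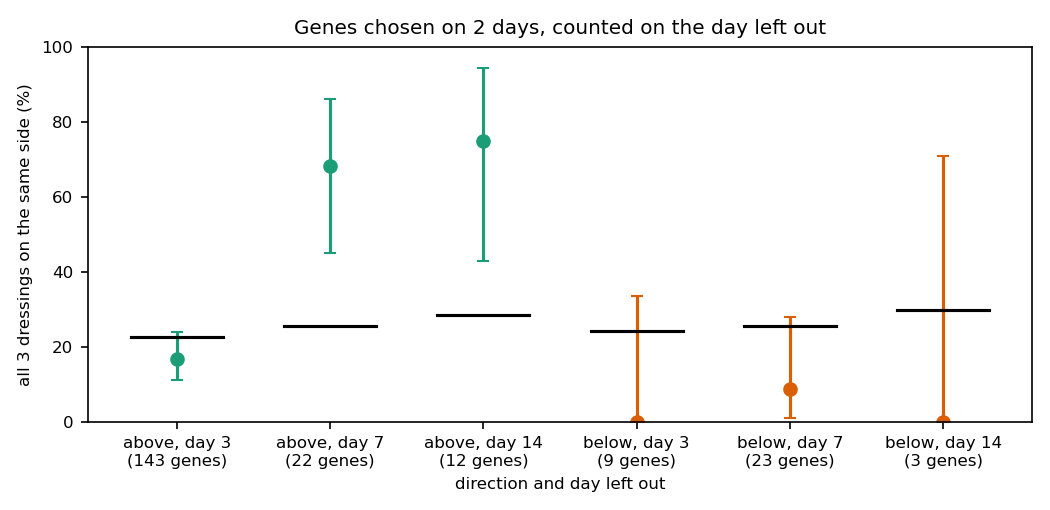
Share of genes chosen on 2 days that lay on the same side with all 3 dressings on the day left out (vertical axis, %), by direction and day (horizontal axis), with exact 95% intervals; black lines give the share over all 15672 genes tested. The genes above reached 75% on day 14 and 68.2% on day 7 but 16.8% on day 3, and the genes below were at 0%, 8.7%, and 0%.

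The dressings were ranked by their means within the genes on 1 side. These genes were chosen on the same values, so the shares only describe them. Of the 230 genes above the control, s-GAG had the highest mean of the 3 dressings in 181 (78.7%), d-SMG in 23 (10%), and Alg in 26 (11.3%). Over all genes tested, s-GAG was highest in 40.9%, and it was there also the dressing most often highest and most often lowest. Of the 257 genes below, s-GAG had the lowest mean in 192 (74.7%), against 38.5% of all genes. These means rest on 3 libraries of different days, among them the s-GAG library of day 14 that stood apart, and the test among dressings called 0 genes with edgeR and 2 with DESeq2. The smallest unadjusted p-values of edgeR's test were those of *Tm4sf4* (0.000611), *Lyc2* (0.0012), and *Krt2* (0.00185). *Tm4sf4*, a tetraspanin-like membrane protein, was at 2.75, 1.98, and 14.5 CPM with s-GAG, 0.0804, 0.184, and 1.64 CPM with d-SMG, 0.734, 0.136, and 3.48 CPM with Alg, and at most 0.0978 CPM in the controls. *Lyc2*, a lysozyme gene whose near copies make its counts uncertain, was at 3.7, 57.5, and 9.13 CPM with d-SMG and between 0.751 and 1.66 CPM with the other dressings, against 7.81, 3.48, and 2.1 CPM in the controls. *Krt2*, a keratin of the upper epidermis, was at 8.32, 7.12, and 20.9 CPM with s-GAG at 1.29, 0.967, and 3.72 CPM with d-SMG, at 11.4, 1.36, and 17.9 CPM with Alg, and at 1.34, 0.545, and 3.57 CPM in the controls.

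The remaining lists held few genes on the same side in all 9 libraries. Basal and wound keratinocyte genes had library medians above 0 in 8 of 9 libraries but 0 of 17 genes above in all 9, and the d-SMG library of day 3 had the 1 median below 0 (−4.6). The 22 proliferation genes had a median of 0.602 over the days and 1.57 on day 14, again with 0 genes on 1 side in all 9. The 23 fibroblast and matrix genes had a median of −0.589, with 1 gene (*Mfap5*) below in all 9. Endothelial genes (median −0.359), genes of TGF-beta and growth factors (−0.255), neutrophil genes (−0.555), and matrix remodeling enzymes (−0.388) had 0 genes on 1 side in all 9. The genes that the study named for RNA sequencing were chosen on these samples. The study named them for d-SMG alone, inflammation genes as lower on the earliest day sampled and healing genes as higher on the later days. The rule over all dressings and days does not test those statements. Of the 9 such genes tested, 0 lay on 1 side in all 9 libraries, and their median was −0.474. The nearest to the rule were *Col7a1*, the collagen of anchoring fibrils, above the control in 8 of the 9 libraries (mean difference 0.381, below with d-SMG on day 3), and *Tlr5*, a sensor of bacterial flagellin, and *Il18*, a cytokine of the inflammasome, both below the control in 8 of the 9 libraries with mean differences of −0.812 and −0.474, the exception in each case being d-SMG on day 7. Of the 15 genes of the study's qPCR, 0 lay on 1 side in all 9. *Il10* and *Cd86* lay below in 8 of 9, with mean differences of −1.38 and −0.617 and the d-SMG library of day 14 as the exception, and *Col1a1* and *Col3a1* lay below in 7 of 9. The study's qPCR statement was for d-SMG alone on the last day sampled, with inflammation genes lower and macrophage, regeneration, and angiogenesis genes higher. The rule does not test that statement either. In the d-SMG library of day 14 the differences were 0.503 for *Cd86* and 1.1 for *Il1b*, from 1 library per arm. Of the macrophage genes, they were 1.11 for *Arg1*, 1.33 for *Jak3*, 0.175 for *Il10*, and −2.03 for *Cd163*. For regeneration and angiogenesis they were 0.538 for *Tgfb1*, 0.246 for *Vegfa*, 0.578 for *Pdgfa*, −0.0278 for *Pdgfb*, −0.693 for *Col1a1*, and −0.982 for *Col3a1*.

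These comparisons rest on 3 control libraries, 1 per day, and a control library that stands apart shifts every difference of its day. With a control library left out, and with it the day, 3317 (day 3), 1633 (day 7), and 1662 (day 14) genes lay on 1 side. Without the d-SMG library of day 3 the number of genes on 1 side was 1346, of which 942 lay above and 404 below, 125 of them at least 2-fold above and 0 at least 2-fold below. Without that library and the s-GAG library of day 14, a choice made after the values were seen, 1628 genes lay on 1 side (1159 above and 469 below), and edgeR's quasi-likelihood test again called 0 genes, with 1702 at an unadjusted p-value under 0.05.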

How the data were processed

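Strand-marking libraries were made from rRNA-depleted RNA of skin and read in pairs, 150 bases from each end. The authors deposited read counts per gene as whole numbers without normalization, and FPKM values (fragments scaled by gene length and library total) as a second table. Per the labels, bcl2fastq, FastQC, TopHat2, and edgeR were used upstream, without versions. The genome build, the annotation, and the counting tool are not given in the sources used here. Each table holds 1 further value column that matches no described sample, which was not used here. Groups came from the treatment labels, whose GAG was read as s-GAG.

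Genes were kept by filterByExpr of edgeR 4.0.16 (R 4.3.3) over the 4 treatments, scaled by TMM, and fitted by quasi-likelihood with robust dispersions, with Benjamini-Hochberg adjustment at 0.05. Standard errors were taken as the fitted difference divided by the root of the F statistic. Directions were read from log2 CPM with a prior count of 2, each dressed library minus the control of its day. The quasi-likelihood test of dressed against control was tested on simulated counts. Promoters came from the RefSeq table for GRCr8. Genes were matched to it by symbol. DESeq2 1.42.0, limma 3.58.1 (voom), other scalings, filters, prior counts, FPKM with pseudocounts of 0.1 and 1, and leaving out libraries, days, and dressings were alternatives. Python 3.11.15 with matplotlib 3.10.9 made the plots.

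The genes named were the 6 with the smallest p-value in each direction, the 10 per direction on 1 side in all 9 libraries with the largest smallest difference (median of at least 50 reads in the higher arm), up to 4 such members of each of 36 lists, the 3 with the smallest p-value in each other test, and the genes of the study's text and qPCR. Provisional symbols were not named. The members, lists, and rules were chosen with earlier results of these data known. No condition has more than 1 library, so the 3 days stood in for replicates, numbered in the order of the days. Day was therefore the block, and p-values measure the spread between these libraries.

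No chance test was built over genes or libraries, and no list was tested as a set.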

Additional observations from a re-analysis of the deposited data

Results flagged for a closer look

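Among 56 checked list medians and genes, values were looked at again where 1 of the 9 dressed libraries stood far from the others, measured by its gap to the nearest divided by the whole range, or where all 3 dressings lay on 1 side of the control on a day and on the other side on another day. Chance gives a library that stands apart in about 1 of 20 groups, and differences between days in a list median were not tested. For single genes, edgeR's test between days called 0 genes, with 461 at an unadjusted p-value under 0.05, and DESeq2 called 13.

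The d-SMG library of day 3 stood apart in the median of the basal and wound keratinocyte list, at −4.6 against 0.676 for the next library. The s-GAG library of day 14 stood apart in the median of the cytosolic ribosomal protein list (2.51, the next at 0.792), in *Actc1* (−4.71, the next at −2.69), and in *Csf1* (−2.73, the next at −1.21). The s-GAG library of day 7 stood apart in *Pou2f2* (−2.43, the next at −1.58). All of these are differences in log2 CPM from the control of the same day.

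Between days, the mean over the 3 dressings of the interferon list median was −3.07 on day 3, whereas on day 7 the medians were 0.128, 1.08, and 0.273 with d-SMG, s-GAG, and Alg. That of the ribosomal protein list was −0.462 on day 3 and 0.461 on day 7. The mean difference of *Tnc* was 2.44 on day 3 and −2.55 on day 7, that of *RT1-A3* −1.48 on day 3 and 0.729 on day 7, and that of *Slc25a52* −0.167 on day 3 and 5.02 on day 14. In each of these, the 3 libraries of a day share 1 control library, and the part of that library was not tested.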

How the results depend on the processing

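The count of 0 genes for dressed against control held under every scaling, filter, and left-out library, day, or dressing tried with edgeR and under limma voom, whereas DESeq2 called 128 and an unadjusted p-value under 0.05 gave 746. DESeq2 called 13 genes between days and 2 among dressings. With no replicate block, that is with day dropped, edgeR called 0 genes, and 959 had an unadjusted p-value under 0.05 (746 with the block). The 168 alternative edgeR fits of the 12 genes named by their p-value kept their direction, and 0 passed after adjustment (adjusted p-values of 0.121 to 1). All 12 passed with DESeq2, which was run on the same counts from which they were picked.

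The count of 487 genes on 1 side in all 9 libraries was 222 with the library size alone and 226 on FPKM with either pseudocount. Its split of 230 above and 257 below was 258 and 226 with RLE factors, 334 and 154 with upper quartile factors, 149 and 73 with the library size, and 135 and 91 on FPKM. It was 3279, 1620, and 1600 without day 3, 7, and 14, and 1924, 851, and 911 without d-SMG, s-GAG, and Alg. Leaving out 1 library gave 548 to 3317, and besides the controls the d-SMG libraries of day 3 (1346) and day 7 (830) shifted it by more than 1.5 times. Fewer libraries make the rule easier to meet. The 8 genes at least 2-fold above became 16 and 2 with a prior count of 0.25 and 10, 3 and 0 on FPKM with a pseudocount of 0.1 and 1, 165, 48, and 15 without day 3, 7, and 14, 190 without d-SMG, and 14 without Alg. Leaving out 1 library gave 8 to 167 (125 without d-SMG on day 3). Without both libraries that stood apart, chosen after seeing the data, the counts were 1628 and 140.

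With no fold margin, the shares on day 7 as the day left out were 31.9% above and 29.7% below (25.5% and 25.5% of all genes). On day 14 they were 35.4% above and 26.3% below (28.5% and 29.8% of all genes). On day 3 they were 12.9% above and 17.5% below (22.5% and 24.3% of all genes), and 27.7% and 35.1% lay on the opposite side. The cause was not tested. Of the list medians, that of the sebaceous gland was of opposite sign with the library size and on FPKM, and 3, 3, and 6 lists were so without day 3, 7, and 14. Depth limits the hair keratins on day 3: except for *Krt25*, the named ones had at most 4 reads in the d-SMG and control libraries.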

Other observations

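Among lists not described above, the erythroid genes, which encode globins and other red cell proteins, had medians above the control of day 3 with every dressing, at 2.12, 3.59, and 3.95 on the log2 CPM scale for d-SMG, s-GAG, and Alg. The control library of day 3 held 18.2 CPM of the list in sum (10 genes, 8 of them tested), and the other controls 156 and 281 CPM. On day 7 and 14 the list medians were −0.631 and −0.0944. Genes of cholesterol and fatty acid synthesis had a median of 1.11 on day 14, with 0 of 25 on 1 side in all 9 libraries, and summed to 1647, 1694, and 1643 CPM in the controls and to between 511 and 4220 CPM in the dressed libraries. Core clock genes had a median of −1.12 on day 14 and of 0.105 and 0.106 on day 3 and 7. None of these differences between days was tested as a list.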
